A study of Mus musculus with 6 samples.

Results

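The interferon regulatory factor family was followed here through 8 of its genes, Irf1, Irf2, Irf3, Irf4, Irf5, Irf7, Irf8 and Irf9, which were picked by symbol from the 55450 genes of the count tables. The study asked how the cranial stem cell niches change with age, and profiled single cells of the cranial bone marrow from untreated wild-type C57BL/6 mice on the 10x Genomics platform. Marrow was taken at 2, 12 and 18 months of age (02m, 12m and 18m) from 2 sites: marrow of the sagittal suture and adjoining parietal bone (CBMA), and parietal bone distant from the sutures (CBMD). Each of the 6 combinations of site and age was 1 library pooled from several mice, with 6 to 8 mice stated for an age, all stated to be male. Nothing states whether the CBMA and CBMD libraries of an age came from different mice.

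Levels were read in 7 classes of cells that were gated by marker UMIs (unique molecular identifiers, each standing for 1 captured transcript). After quality filters 37576 cells remained, 2718 to 8580 in a library, with a median of 2806 to 3930.5 UMIs per cell across the libraries. The gates named 21236 neutrophils, 6986 monocytes, 771 progenitors with at least 10 UMIs of Mpo, 592 dendritic cells, 1306 T cells, 682 B cells and 175 plasma cells. No Irf gene was used in a gate. Markers that served in the gates were high, which the gating itself brings about, so their levels are no independent check of the labels. S100a8, a calprotectin subunit, reached 65130 CPM (UMIs of the gene relative to all UMIs of the summed cells) or more in the neutrophils of every library. Mpo reached 6671 or more in progenitors, H2-Aa 4881 or more in dendritic cells, Cd3e 335 or more in T cells and Jchain 21028 or more in plasma cells. Xist, which is transcribed from the inactive X chromosome, stood at 564 CPM in CBMA_12m and 596 CPM in CBMD_12m, against 0.252 to 0.360 CPM in the other 4 libraries, so both 12m libraries went against the stated sex. The tests of classes, subsets and age and the comparison by interferon-stimulated transcripts were also run without them, while the levels at 12m and the class means include them. Between any 2 libraries 6 to 21 cell barcodes were shared.

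Interferon regulatory factors are transcription factors that share a DNA-binding domain and read GAAA repeats, the core of the interferon-stimulated response element (ISRE). Some members start interferon production when nucleic acid sensors fire (Irf3, Irf7), Irf9 carries the interferon signal to the genome with its partner Stat2, and others (Irf4, Irf8) steer the identity of lymphoid and myeloid cells together with the ETS factors PU.1 and Spi-B. In the marrow, Irf8 is known for favouring monocyte and dendritic fates over the neutrophil fate, and Irf4 for plasma cell formation.

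Several family members are themselves targets of interferon signalling, so their promoters are shown first, with the RefSeq sequence (GRCm38.p6) of the 250 bases before the transcription start site of Irf7, whose level was lower at the older ages in each class measured, and of the members that hold a searched motif. The motifs were the ISRE (GAAA, any 2 bases, GAAA) and the gamma-activated site (GAS, TTCNNNGAA), searched on both strands in 300 bases, from 250 bases before to 50 after the start. Capitals mark a match. Over all 32851 RefSeq promoters of that length, 3.44% held the ISRE and 8.3% held the GAS motif. All 8 genes matched the table, with 11 promoter entries.
Irf7 (chr7:141266425-141266674, minus strand): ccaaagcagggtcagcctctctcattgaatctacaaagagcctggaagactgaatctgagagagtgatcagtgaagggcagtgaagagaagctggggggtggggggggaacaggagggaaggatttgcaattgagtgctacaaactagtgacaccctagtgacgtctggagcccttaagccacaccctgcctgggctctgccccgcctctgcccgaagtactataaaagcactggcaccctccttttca
Irf1 (chr11:53769764-53770013, plus strand): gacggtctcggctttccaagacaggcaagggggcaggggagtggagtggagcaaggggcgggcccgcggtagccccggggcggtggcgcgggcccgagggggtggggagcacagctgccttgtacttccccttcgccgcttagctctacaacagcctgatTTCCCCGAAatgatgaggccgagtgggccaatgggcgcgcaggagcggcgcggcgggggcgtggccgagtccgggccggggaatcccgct
Irf2 (chr8:46739495-46739744, plus strand): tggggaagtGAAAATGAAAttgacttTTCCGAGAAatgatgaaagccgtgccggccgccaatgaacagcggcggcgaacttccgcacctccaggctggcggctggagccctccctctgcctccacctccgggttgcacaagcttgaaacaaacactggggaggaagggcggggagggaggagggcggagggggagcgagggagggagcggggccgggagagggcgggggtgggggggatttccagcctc
Irf8 (chr8:120736108-120736357, plus strand): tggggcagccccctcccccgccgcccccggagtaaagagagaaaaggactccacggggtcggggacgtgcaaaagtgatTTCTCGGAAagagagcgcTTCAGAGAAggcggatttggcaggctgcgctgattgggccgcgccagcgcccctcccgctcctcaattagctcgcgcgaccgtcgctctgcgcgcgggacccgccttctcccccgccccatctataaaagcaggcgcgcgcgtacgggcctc

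Of these promoters, Irf1 held 1 GAS motif, whose first base lay at position -90 from the start site. Irf8 held 2 GAS motifs, at -171 and -153, and Irf2 held the ISRE at -241 and a GAS motif at -224. Neither motif was found in the windows of Irf3, Irf4, Irf5, Irf7 and Irf9, which says only that these letters were not there. The genes lie in GRCm38 on chromosomes 11 (Irf1, 53770014 to 53778374), 8 (Irf2, 46739732 to 46847458, and Irf8, 120736358 to 120756694), 7 (Irf3, 44997648 to 45002848, and Irf7, 141262706 to 141266481), 13 (Irf4, 30749226 to 30766976), 6 (Irf5, 29526625 to 29541871) and 14 (Irf9, 55603571 to 55610030). Irf8 overlaps Gm20388 and Irf9 overlaps Rnf31 on the same strand, so reads there may not be told apart between the genes and both levels are uncertain to that extent.

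The members differed in the classes where they were highest. Irf5 was high in monocytes and dendritic cells, Irf8 in dendritic cells, B cells and monocytes, and both were low in neutrophils. Irf1 and Irf2 had their highest mean in neutrophils, with Irf2 in B cells close to it, Irf4 was highest in plasma and B cells, and Irf3 had the narrowest range of class means (22.8 to 50.3 CPM). Classes were compared within libraries by edgeR's quasi-likelihood test on 41 sums of UMIs per library and class, with the library as a block. The test ran across 11069 genes (Benjamini-Hochberg adjusted p under 0.05). Its p-values measure only how the differences between classes vary from library to library, as the block takes out level differences between whole libraries. Over 8 genes and every pair of classes, 125 of 168 tests passed, where 54.2% of tests passed over all genes and the same pairs, and 115 passed without both 12m libraries. In monocytes against neutrophils 3 of 8 members were higher (Irf4, Irf5, Irf8), where 41.2% of all genes were, and 4 were lower (Irf1, Irf2, Irf7, Irf9), where 37.2% of all genes were, so most genes differed between these classes and the shares are no result about the family. The test weighs libraries by TMM factors, which averaged 0.734 in neutrophil sums and 0.517 in plasma sums, against 1.1 to 1.38 in the other classes. S100a8 and S100a9 took 14.8% to 21.9% of neutrophil UMIs and immunoglobulin genes took 35.3% to 63.1% of plasma UMIs. On the test's scale every neutrophil level therefore counts for 0.69 more (log2) against monocytes than its CPM does, and every difference from neutrophils or plasma cells below is relative to that scale.

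**Figure D1:**
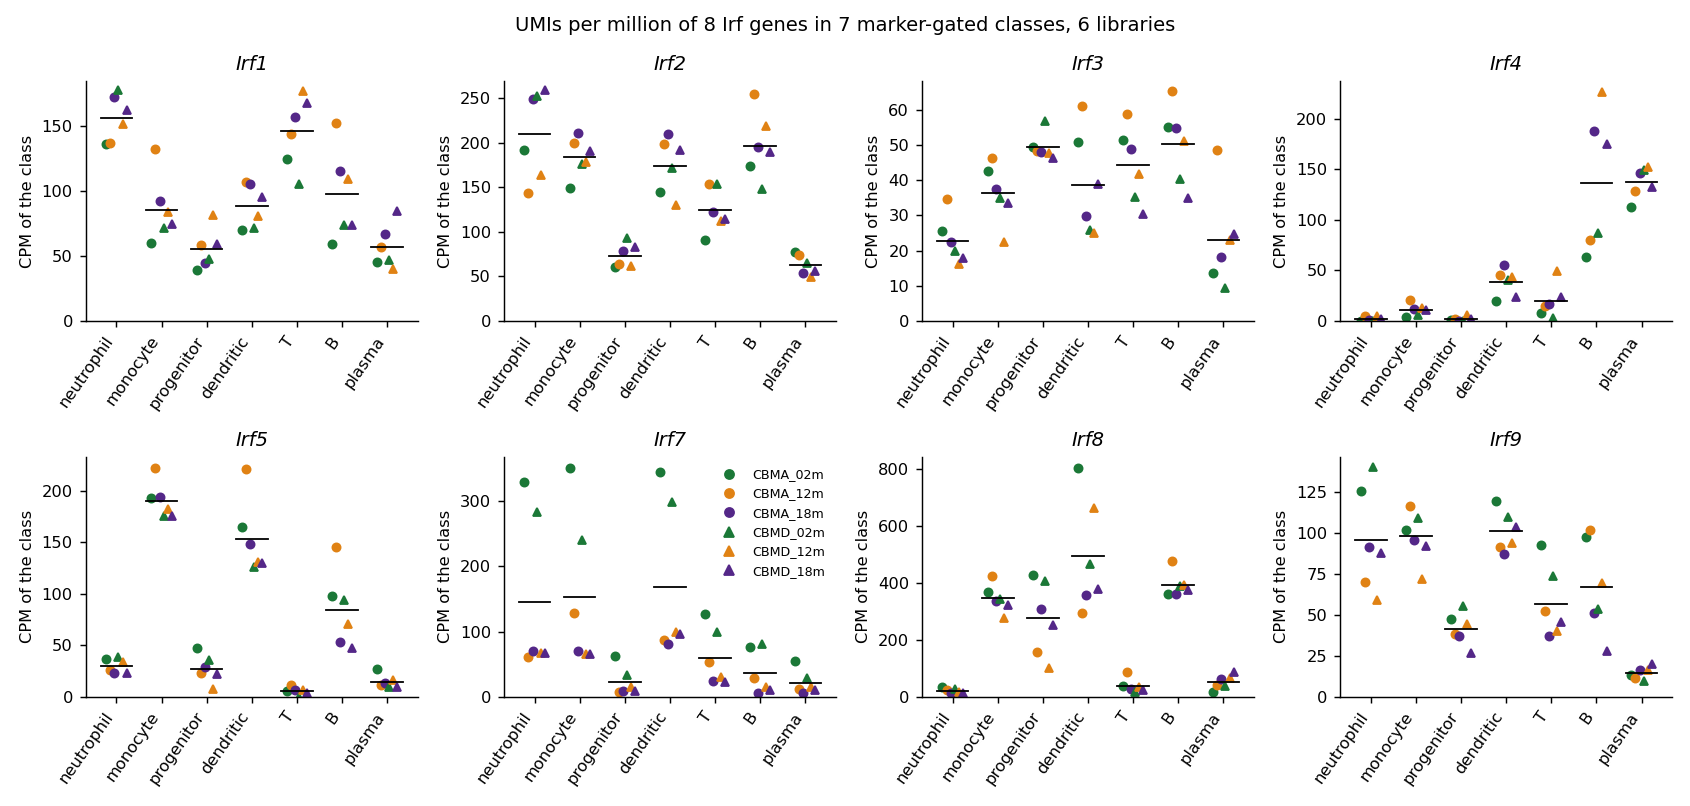
CPM of each Irf gene (vertical axes, each from 0) in the 7 classes (horizontal axes), with 1 point per library (circles CBMA, triangles CBMD, colour by age) and a bar at the mean of the 6 libraries. The Irf7 points of both 02m libraries stand apart from the other 4 in neutrophils (328 and 283 CPM), monocytes (351 and 240 CPM) and dendritic cells (345 and 299 CPM).

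With age, Irf7 was lower at 12m and 18m than at 02m in each class with enough UMIs to compare, 5 classes in CBMA and 4 in CBMD. Each combination of site and age had 1 library, so within a site ages were compared without a test: a gene with at least 50 UMIs over 2 libraries was called where its CPM differed by at least 1.5-fold, and intervals are exact 95% Poisson intervals that cover counting error only. In neutrophils at 18m against 02m, 3 of 7 measured members were lower in CBMA, where 26.9% of all genes were, and 4 of 7 in CBMD, where 21% were. No measured member was higher there, against 14% of all genes in CBMA and 13.4% in CBMD. At 12m against 02m, 3 of 7 members were lower in neutrophils of CBMA (9.59% of all genes) and 4 of 7 in CBMD (15.8%). In monocytes at 18m against 02m, Irf7 alone of 8 members was lower at each site (11.3% of all genes in CBMA, 12.2% in CBMD), and 2 members (Irf1, Irf4) were higher in CBMA (23.2%) and 1 (Irf4) in CBMD (20.2%). At 12m against 02m, 1 of 8 members was lower and 2 higher in monocytes of CBMA (10.9% and 30.6% of all genes). In CBMD 3 of 8 were lower and 1 higher (16% and 26.1%).

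In dendritic cells at 18m against 02m, 3 of 8 members were lower in CBMA (15.6% of all genes; Irf3, Irf7 and Irf8) and 2 of 8 in CBMD (13.9%; Irf4 and Irf7). Dendritic members higher were Irf1 and Irf4 in CBMA (22.1%) and Irf3 in CBMD (18.1%). In T cells the lower members were 2 of 6 in CBMA (11.5%), and in CBMD 2 of 5 (19.2%), in both cases Irf7 and Irf9, and Irf1 was higher in CBMD (20.7%) and no member in CBMA (21.4%). Progenitors had 2 of 7 lower in CBMA (14.1%, Irf5 and Irf7), and in CBMD 2 of 5 (13.4%, Irf8 and Irf9), with none higher (25.9% and 10.4% of all genes). In B cells 2 of 5 were higher in CBMA (21.4%, Irf1 and Irf4) and 1 of 5 in CBMD (15.2%, Irf4), while Irf5 was lower at both sites (17.9% and 23.2%), with ratios of 0.542 (0.299 to 0.989) and 0.501 (0.266 to 0.998). Plasma cells had Irf8 higher of 4 members in CBMA (13.6%) and Irf1 and Irf8 of 4 in CBMD (21.1%), from 4 or 5 UMIs at 02m, and none lower (53.5% and 44% of all genes). With 4 to 8 members measured, most of these shares rest on 1 or 2 genes, which are described singly below.

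Age was also tested over both sites together, by edgeR's quasi-likelihood test on the 6 library sums of a class with age and site as terms, a test added after the data were seen. It has 2 residual degrees of freedom and takes the age difference to be the same at both sites. Its p-values measure the spread of the sites around that shared difference. They do not measure the spread between mice, as each site and age had 1 pooled library. The test was run in the 6 classes other than plasma cells, whose 02m sums of at least 10 cells came from 1 library. At 18m against 02m, 8 of 46 gene and class pairs were lower (5.77% of such pairs over all genes) and 2 higher (4.83%). Irf7 was lower in all 6 classes, by log2 -2.07 (SE 0.22, adjusted p = 0.00766) in neutrophils, -2.26 (SE 0.19, adjusted p = 0.00229) in monocytes and -1.96 to -3.17 in the others. The Irf7 call was lost in progenitors without CBMA_02m (log2 -1.57, adjusted p = 0.304), and in T cells (log2 -2.04, adjusted p = 0.0682) and B cells (log2 -2.73, adjusted p = 0.1) without CBMA_18m.

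Fewer calls were made for the other members. Lower at 18m against 02m were Irf8 in neutrophils (log2 -1.01, adjusted p = 0.0321) and Irf9 in T cells (log2 -1.07, adjusted p = 0.0414), and each was lost without CBMA_02m or CBMA_18m, and also without CBMD_02m (Irf8) or CBMD_18m (Irf9), with adjusted p of 0.102 to 0.348 for Irf8 and 0.108 to 0.585 for Irf9. Irf4 was higher in monocytes (log2 1.01, adjusted p = 0.0424) and in neutrophils (log2 2.99, adjusted p = 0.0295), where it rests on 3 and 4 UMIs at 02m, and both calls were lost without CBMA_02m or CBMD_02m, that in monocytes also without either 18m library. At 12m against 02m, 9 pairs were lower (5.86%), namely Irf7 in all 6 classes, Irf9 in neutrophils and Irf5 and Irf8 in progenitors, and 2 higher (5.3%), Irf4 in neutrophils and monocytes. Without CBMA_02m 5 of these 11 calls were lost (Irf9 in neutrophils, Irf4 in monocytes, Irf5 and Irf7 in progenitors, Irf7 in B cells), and others that were lost with 1 library left out were Irf9 in neutrophils and Irf7 in B cells without CBMD_02m, Irf7 in B cells without CBMD_12m and Irf7 in progenitors without CBMA_12m. At 18m against 12m, Irf2 in neutrophils and Irf8 in progenitors were higher (0.856%), the first lost without CBMA_02m, CBMA_12m, CBMA_18m or CBMD_02m and the second without CBMD_12m or either 18m library, and none were lower (0.76%; 8 pairs had an unadjusted p under 0.05 in either direction). Between CBMA and CBMD no pair passed in either direction (0.067% of all genes higher, 0.108% lower), with 9 of 46 at an unadjusted p under 0.05, and none passed with RLE normalization.

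**Figure D2:**
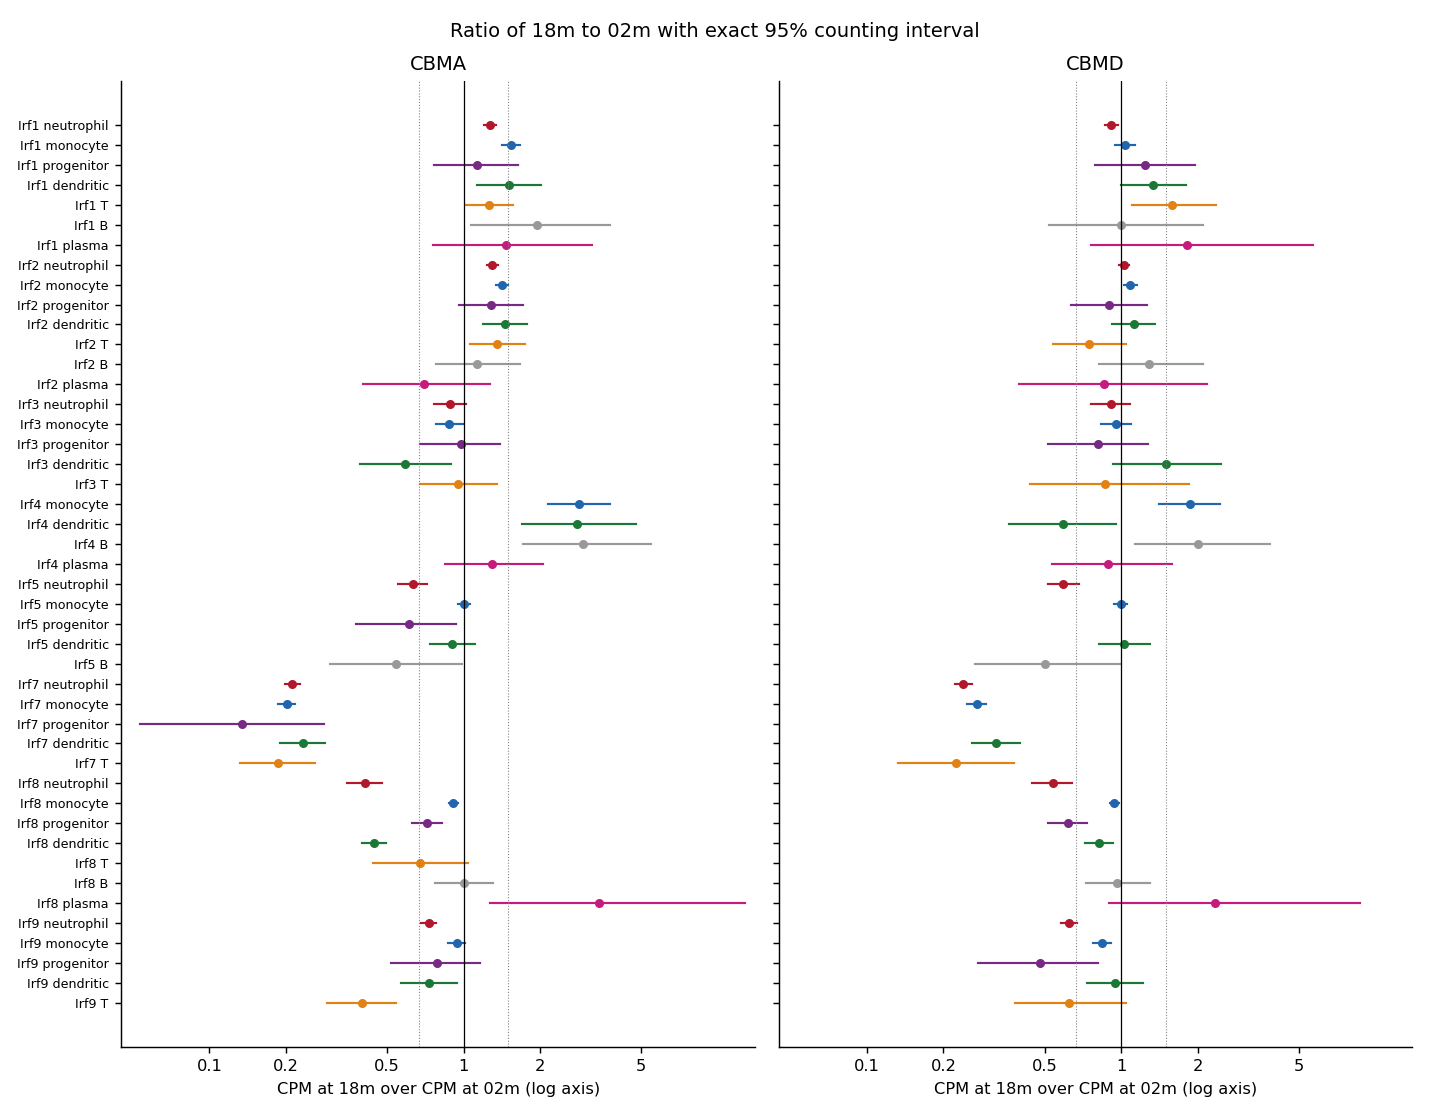
Ratio of CPM at 18m to CPM at 02m (horizontal log axis) for each Irf gene and class with at least 50 UMIs over the 2 libraries, in CBMA (left) and CBMD (right). Points are ratios, bars are exact 95% counting intervals, and dotted lines mark 1.5-fold, with every Irf7 point between 0.134 and 0.322.

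Irf7, the factor that amplifies interferon alpha production and is itself induced by interferon, is described first in neutrophils, the class with the most cells. Its level there was 328, 61.0 and 69.6 CPM in CBMA at 02m, 12m and 18m, with 283, 66.3 and 67.6 CPM in CBMD. The 02m libraries stood far above the other 4, which lay within 61.0 to 69.6 CPM and did not overlap them. The ratio of 18m to 02m was 0.212 (0.198 to 0.227) in CBMA and 0.239 (0.222 to 0.258) in CBMD, and that of 12m to 02m was 0.186 (0.165 to 0.208) and 0.235 (0.214 to 0.257).

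The 02m libraries were also the highest in the other mature myeloid classes. Monocytes held 351, 128 and 70.4 CPM of Irf7 in CBMA at 02m, 12m and 18m, with 240, 65.5 and 64.9 CPM in CBMD, and dendritic cells held 345, 86.4 and 80.1 CPM in CBMA, with 299, 99.2 and 96.3 CPM in CBMD. In both classes the 02m libraries did not overlap the older ones. The ratio of 18m to 02m was 0.201 (0.186 to 0.217) and 0.270 (0.248 to 0.294) in monocytes of CBMA and CBMD, and 0.233 (0.189 to 0.285) and 0.322 (0.259 to 0.398) in dendritic cells. Monocytes of CBMA_12m lay between the ages, at 0.366 (0.328 to 0.408) of the 02m level, and the 18m level there was 0.549 (0.481 to 0.627) of the 12m level.

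Lymphocytes and progenitors held less Irf7 on the CPM scale at every age, with the same difference. T cells had 127, 54.0 and 23.5 CPM in CBMA at 02m, 12m and 18m, with 99.3, 30.3 and 22.3 CPM in CBMD, giving 18m to 02m ratios of 0.186 (0.131 to 0.259) and 0.224 (0.133 to 0.378). Progenitors had 62.7, 6.92 and 8.43 CPM in CBMA, a ratio of 0.134 (0.0534 to 0.282) from 7 UMIs at 18m and 212 at 02m, and 33.1, 15.4 and 9.25 CPM in CBMD, where the UMIs were too few to call. B cells were again highest in the 02m libraries, with 76.3, 29.1 and 5.87 CPM in CBMA, with 80.7, 15.4 and 9.66 CPM in CBMD. As a measure of free neutrophil transcripts, S100a8 stood in T cells at 0.411% to 1.15% of its neutrophil level in the same library, while Irf7 stood there at 32.9% to 88.4%. In B cells S100a8 stood at 0.523% to 1.69% and Irf7 at 8.43% to 47.6%. In progenitors S100a8 stood at 8.59% to 39.3% and Irf7 at 11.3% to 23.2%. These progenitor ranges overlap, and the part of free transcripts in progenitor Irf7 was not tested.

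Irf7 was lower at 18m within subsets as well. Among neutrophils with under 0.2% of their UMIs in secondary granule genes, genes that neutrophils are known to make at earlier stages, the 18m to 02m ratio was 0.183 in CBMA and 0.234 in CBMD. Among those with at least 1% it was 0.190 and 0.371, and it was 0.208 and 0.266 in classical monocytes and 0.235 and 0.267 in Cd209a-positive dendritic cells. In shares of cells, Irf7 was detected in 18.1% of neutrophils of CBMA_18m and 15.2% of CBMD_18m, against 58.4% of CBMA_02m and 54.4% of CBMD_02m. With each cell thinned to 1000 UMIs these shares were 7.20% (exact 95% interval 6.41% to 8.04%) and 5.73% (5.01% to 6.52%), against 29% (27.8% to 30.4%) and 24.4% (23.2% to 25.6%). B cells gave 1.82% over all libraries after the same thinning, with a median depth of 4248 UMIs before it, against 2956.5 in neutrophils. That pooled share is unlike the neutrophil shares by library, as only 57 and 38 of the 682 B cells came from CBMA_02m and CBMD_02m. The difference between 02m and 18m in neutrophils is larger than counting error at both sites, but the spread between mice of an age cannot be told apart from it with 1 library per condition.

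**Figure D3:**
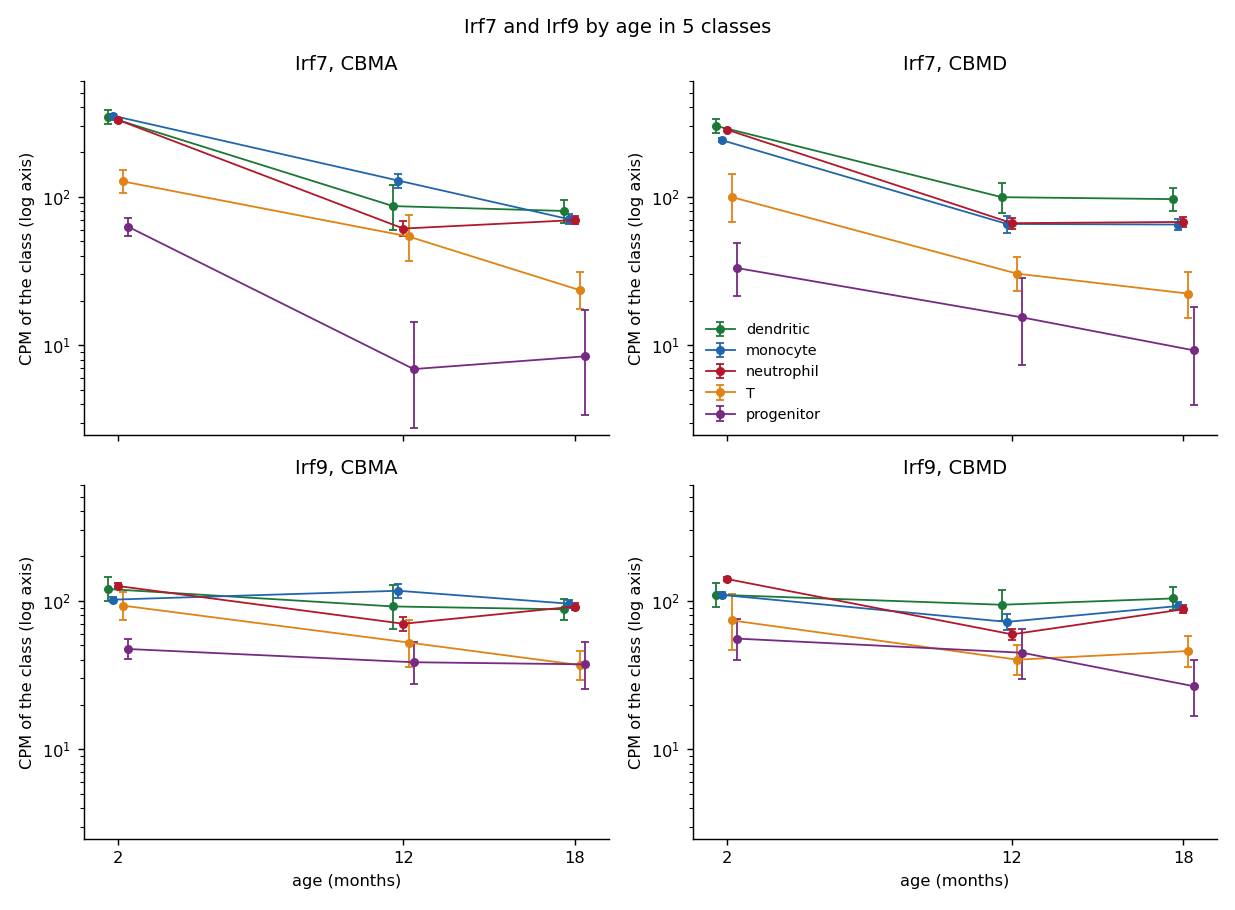
CPM (vertical log axis) of Irf7 (top) and Irf9 (bottom) against age in months in CBMA (left) and CBMD (right), for 5 classes in colour. Points are single libraries and bars are exact 95% counting intervals. All 5 Irf7 lines are highest at 02m, while Irf9 in monocytes keeps between 72.0 and 117 CPM at all ages.

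By class, Irf7 averaged 168 CPM in dendritic cells, 153 in monocytes and 146 in neutrophils, far above T cells (59.3), B cells (36.2), progenitors (22.6) and plasma cells (20.95), with SDs of 18.0 to 124 CPM over the 6 libraries. In edgeR's test dendritic cells against monocytes did not pass (log2 0.22, SE 0.17, adjusted p = 0.386), and neutrophils were above T cells (log2 1.85, SE 0.18, adjusted p = 5.75e-12). Monocytes were below neutrophils on the test's scale (log2 -0.56, adjusted p = 0.00165) although their mean CPM was higher, and this call was lost without the library block (adjusted p = 0.345). Progenitors likewise were below plasma cells in the test (log2 -1.41, adjusted p = 0.000184) and above them in CPM. B cells against progenitors did not pass (log2 0.59, adjusted p = 0.0818), and T cells over B cells (log2 1.11, adjusted p = 0.000687) passed only with the library block (adjusted p = 0.306 without it).

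Irf3, which starts interferon beta transcription when it is phosphorylated by Tbk1, was the member with the narrowest range over classes. Its mean was 50.3 CPM in B cells, 49.5 in progenitors, 44.4 in T cells, 38.6 in dendritic cells, 36.3 in monocytes, 22.9 in plasma cells and 22.8 in neutrophils. Neighbours among the first 5 classes in that order did not pass edgeR's test (adjusted p 0.109 to 0.99). Plasma cells, low in CPM, were on the test's scale above neutrophils (log2 0.85, adjusted p = 0.000245) and monocytes (log2 0.84, adjusted p = 0.000503). They were also above dendritic cells (log2 0.75, adjusted p = 0.00355) and progenitors (log2 0.61, adjusted p = 0.0146). Plasma cells against T cells or B cells did not pass (adjusted p = 0.104 and 0.23). Monocytes against neutrophils did not pass either (log2 0.01, SE 0.14, adjusted p = 0.928), and this small difference changed sign between settings, from -0.19 to 0.05. In neutrophils it held 25.5, 34.6 and 22.5 CPM in CBMA at 02m, 12m and 18m, with 19.8, 16.3 and 18.0 CPM in CBMD, with 18m to 02m ratios of 0.885 (0.764 to 1.02) and 0.909 (0.763 to 1.08). In monocytes the ratios were 0.878 (0.777 to 0.991) and 0.957 (0.836 to 1.09), so for 18m against 02m in these 2 classes the intervals held no 1.5-fold difference.

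Irf9, the DNA-binding subunit of a complex that also holds Stat2, was lower at older ages in neutrophils and T cells. Neutrophils held 126, 70.0 and 91.3 CPM in CBMA at 02m, 12m and 18m, with 140, 59.4 and 87.6 CPM in CBMD. The 02m libraries were the highest at both sites, the 12m libraries the lowest, and the ages did not overlap. The 18m to 02m ratio was 0.728 (0.679 to 0.779) in CBMA, short of 1.5-fold, and 0.625 (0.581 to 0.672) in CBMD. The 12m to 02m ratio was 0.557 (0.497 to 0.623) in CBMA and 0.424 (0.384 to 0.467) in CBMD. Among neutrophils with under 0.2% granule UMIs it was 0.849 in CBMA and 0.455 in CBMD. Neutrophils with at least 1% granule UMIs numbered 364 in CBMA_12m beside 580 with under 0.2%, against 908 beside 3605 in CBMA_02m.

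In T cells Irf9 stood at 92.6, 52.3 and 36.9 CPM in CBMA at 02m, 12m and 18m, with 73.7, 40.1 and 45.9 CPM in CBMD. The ratio of 18m to 02m was 0.398 (0.291 to 0.544) in CBMA and 0.622 (0.383 to 1.05) in CBMD, where the interval reached equality. Monocytes held 102, 117 and 95.5 CPM in CBMA, with 109, 72.0 and 92.1 CPM in CBMD. Their 18m to 02m ratios were 0.939 (0.87 to 1.01) and 0.842 (0.777 to 0.91). At 12m against 02m the monocytes of CBMD were lower by at least 1.5-fold. Over the classes Irf9 was high in dendritic cells (mean 101 CPM), monocytes (97.9) and neutrophils (95.6), and low in plasma cells (14.5). Neutrophils passed the test above all 6 other classes on the test's scale, monocytes included (monocytes against neutrophils log2 -0.64, adjusted p = 0.000644), although the mean CPM of monocytes was slightly higher.

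Irf1, an activator induced by interferon gamma, was highest in neutrophils and T cells. Neutrophils held 136, 137 and 172 CPM in CBMA at 02m, 12m and 18m, with 178, 152 and 163 CPM in CBMD, and T cells held 125, 144 and 157 CPM in CBMA, with 106, 177 and 168 CPM in CBMD. Monocytes held 60.0 to 133 CPM and progenitors 39.3 to 81.6 CPM, each below every neutrophil library. In edgeR's test neutrophils were above all 6 other classes, with T cells next (neutrophils over T cells log2 0.68, SE 0.17, adjusted p = 0.000347), and monocytes were below neutrophils by log2 -1.61. B cells against dendritic cells and dendritic cells against monocytes did not pass (adjusted p = 0.92 and 0.743).

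The age ratios of Irf1 were called higher in some classes and lower in none. In monocytes the ratio of 18m to 02m was 1.53 (1.41 to 1.67) in CBMA and 1.04 (0.945 to 1.13) in CBMD, and that of 12m to 02m was 2.21 (1.96 to 2.48) in CBMA and 1.16 (1.02 to 1.32) in CBMD. In T cells it was 1.26 (1.02 to 1.56) and 1.59 (1.1 to 2.36) at 18m against 02m. In neutrophils it was 1.27 (1.2 to 1.34) and 0.915 (0.864 to 0.968), so the sites moved in opposite directions within less than 1.5-fold.

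Irf2, which binds the same sites as Irf1 and is known as its antagonist, was abundant in each myeloid class but the progenitors. Neutrophils held 192, 144 and 248.6 CPM in CBMA at 02m, 12m and 18m, with 252, 164 and 259 CPM in CBMD, with the 12m library lowest at both sites. The ratio of 18m to 12m was 1.73 (1.6 to 1.88) in CBMA and 1.58 (1.48 to 1.68) in CBMD, while that of 18m to 02m was 1.3 (1.24 to 1.36) and 1.03 (0.981 to 1.08). The mean was 210 CPM in neutrophils, 197 in B cells, 184 in monocytes, 174 in dendritic cells, 125 in T cells, 73.5 in progenitors and 62.6 in plasma cells. Neutrophils passed above all 6 classes in edgeR's test (over B cells log2 0.80, SE 0.14, adjusted p = 4.16e-06) and progenitors below all 6 on the test's scale, plasma cells included, although the mean CPM of plasma cells was lower. B cells against monocytes and monocytes against dendritic cells did not pass (adjusted p = 0.611 and 0.894), and dendritic cells over T cells (log2 0.43, adjusted p = 0.0101) was lost without CBMA_02m (log2 0.40) or CBMA_18m (log2 0.38).

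Irf5, which acts after Toll-like receptors and Myd88 and drives inflammatory cytokines in macrophages, was a gene of monocytes and dendritic cells in these data. Monocytes held 193, 222 and 194 CPM in CBMA at 02m, 12m and 18m, with 176, 183 and 175 CPM in CBMD. Dendritic cells held 126 to 221 CPM, B cells 47.1 to 145 CPM, neutrophils 23.0 to 38.7 CPM and T cells 0 to 11.4 CPM. Monocytes against dendritic cells did not pass (log2 0.29, SE 0.18, adjusted p = 0.262), dendritic cells were above B cells (log2 1.07, SE 0.21, adjusted p = 8.29e-05), and T cells were below all 6 other classes. The step from B cells to neutrophils (log2 0.61, SE 0.21, adjusted p = 0.0111) was lost without CBMA_02m (log2 0.46), CBMA_12m (0.28), CBMD_18m (0.52) or both 12m libraries (0.33). After thinning to 1000 UMIs, 17.2% of monocytes and 0.767% of T cells had an Irf5 UMI (median depths 9029 and 5334 UMIs before it).

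With age Irf5 in monocytes had an 18m to 02m ratio of 1.01 (0.952 to 1.06) in CBMA and 0.998 (0.941 to 1.06) in CBMD. In neutrophils it was 36.7, 25.8 and 23.1 CPM in CBMA at 02m, 12m and 18m, with 38.7, 34.0 and 23.0 CPM in CBMD, with both 18m libraries lowest. The ratio of 18m to 02m there was 0.63 (0.55 to 0.721) and 0.593 (0.514 to 0.683). It was 0.545 and 0.607 among neutrophils with under 0.2% granule UMIs.

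Irf8, required for type 1 conventional dendritic cells (cDC1) and for monocyte development, was highest in dendritic cells. They held 805, 295 and 357 CPM in CBMA at 02m, 12m and 18m, with 467, 663 and 380 CPM in CBMD. B cells held 360 to 479 CPM, monocytes 278 to 425 CPM and progenitors 102 to 428 CPM, while T cells held 16.0 to 86.7 CPM and neutrophils 13.9 to 35.8 CPM. Neighbours in the order of dendritic cells, B cells, monocytes and progenitors did not pass (adjusted p 0.0775 to 0.636), and monocytes were above neutrophils by log2 3.35 (SE 0.30, adjusted p = 4.38e-13), the largest of the 8 genes. T cells against neutrophils, at the low end, did not pass (log2 0.24, adjusted p = 0.504). After thinning, 25.1% of monocytes and 1.49% of neutrophils had an Irf8 UMI.

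Within the dendritic class Irf8 followed the subset. Plasmacytoid cells (29 cells by Siglech, Ccr9, Klk1 and Cox6a2) held 2625 CPM over all libraries (2408 to 2856) and cDC1 (40 cells with Xcr1 or Clec9a) held 1851 CPM (1744 to 1962), against 115 CPM (103 to 127) in 322 Cd209a-positive cells. Over the libraries that held any, with 3 to 11 plasmacytoid cells and 2 to 11 cDC1 in a library, the ranges were 1906 to 3836 CPM, 1241 to 2254 CPM and 88.7 to 185 CPM and did not overlap between the first 2 subsets and the third. The 2 rare subsets were too small for a test. In the whole class, Siglech was at 146, 2.54 and 28.1 CPM in CBMA at 02m, 12m and 18m, with 24.1, 160 and 22.7 CPM in CBMD, so the 2 libraries with the most Irf8, CBMA_02m and CBMD_12m, were also those with the most Siglech. Clec9a, at 24.3 to 75.4 CPM, was also highest in CBMD_12m and next highest in CBMA_02m. Among Cd209a-positive cells the 18m to 02m ratio of Irf8 was 0.679 (0.475 to 0.98) in CBMA and 1.08 (0.761 to 1.53) in CBMD, against 0.443 and 0.815 in the whole class.

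**Figure D4:**
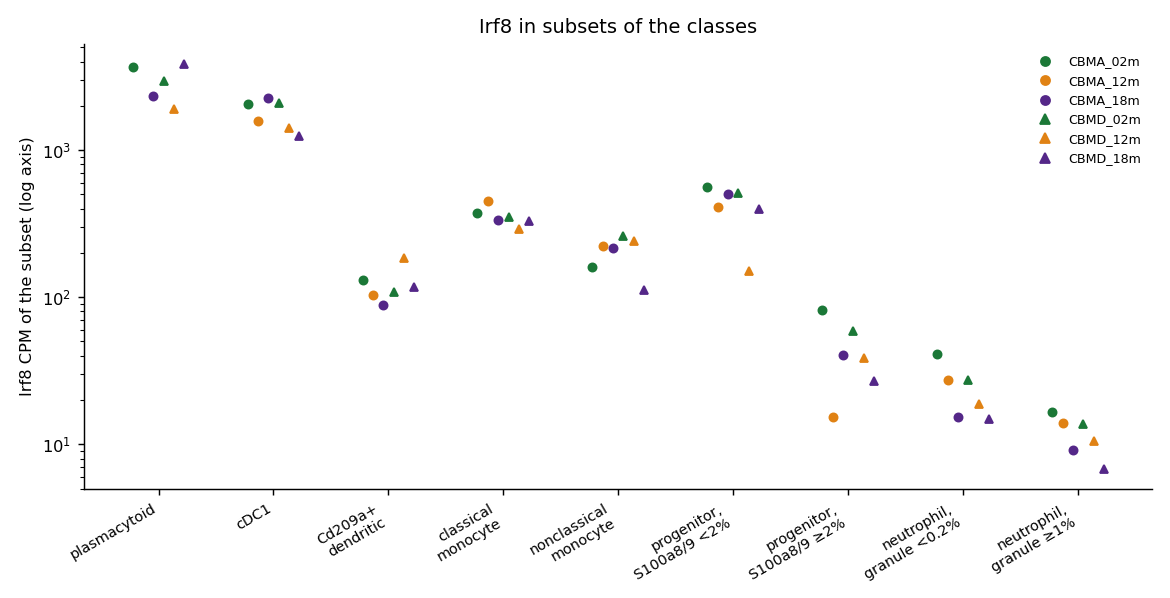
Irf8 CPM (vertical log axis) in subsets of the dendritic, monocyte, progenitor and neutrophil classes, with 1 point per library (circles CBMA, triangles CBMD, colour by age). Plasmacytoid cells and cDC1 lie above 1000 CPM in all libraries that held any, and neutrophils rich in granule genes below 20 CPM.

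Progenitors with at least 10 Mpo UMIs, split by their share of S100a8 and S100a9 after the gates were seen, also differed in Irf8. Those with under 2% of their UMIs in S100a8 and S100a9 held 563, 411 and 502 CPM in CBMA at 02m, 12m and 18m, with 511, 151 and 395 CPM in CBMD. Those with 2% or more, a group set by these genes alone, held 82.3, 15.4 and 40.2 CPM in CBMA, with 58.9, 38.5 and 26.8 CPM in CBMD. The groups did not overlap. In edgeR's test Irf8 was higher by log2 3.14 (SE 0.20, adjusted p = 6.4e-14) and was the only 1 of 5 tested members to pass, where 14.7% of all genes were higher. Irf5 did not reach the filter on low counts there, at 38.6 ± 17.6 CPM in the cells with under 2%, against 12.6 ± 10.3 CPM in the others (SD, 6 libraries each). It was tested, and higher, without CBMA_18m (log2 1.19, adjusted p = 0.00381), without CBMD_12m (log2 1.46, adjusted p = 0.0014) and without both 12m libraries (log2 1.25, adjusted p = 0.0159), where Irf7 was also tested and lower (log2 -1.08, adjusted p = 0.00709). Irf1, Irf2, Irf3 and Irf9 stood within log2 0.20 of equality. Among the cells with under 2%, the 18m to 02m ratio of Irf8 was 0.891 (0.774 to 1.02) in CBMA and 0.774 (0.646 to 0.927) in CBMD, against 0.719 and 0.616 in all progenitors.

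Neutrophils kept little Irf8, and less of it with age. They held 35.8, 23.5 and 14.6 CPM in CBMA at 02m, 12m and 18m, with 25.9, 17.1 and 13.9 CPM in CBMD, with the 18m libraries lowest at both sites. The 18m to 02m ratio was 0.408 (0.347 to 0.477) and 0.537 (0.447 to 0.643), and 0.376 and 0.537 among neutrophils with under 0.2% granule UMIs. An Irf8 UMI was found in 4.56% of neutrophils, and the ratio of 12m to 02m in CBMA, 0.657, turned to 1.25 without the cells marked as doublets. In monocytes the ratios were 0.91 (0.874 to 0.947) and 0.941 (0.901 to 0.981), and in B cells 0.999 (0.769 to 1.31) and 0.967 (0.728 to 1.3).

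Irf4, needed for plasma cell formation and for B cell responses, was highest in the B lineage. Plasma cells held 113 to 152 CPM, B cells 63.6, 79.9 and 188 CPM in CBMA at 02m, 12m and 18m, with 87.4, 226 and 175 CPM in CBMD. Dendritic cells held 19.98 to 55.7 CPM, T cells 3.2 to 49.3 CPM, monocytes 4.09 to 20.4 CPM, neutrophils 0.158 to 4.84 CPM and progenitors 0 to 6.16 CPM. In edgeR's test plasma cells were above B cells (log2 1.16, SE 0.31, adjusted p = 0.00251) with nearly equal mean CPM (137 in both), and B cells above dendritic cells (log2 1.73, SE 0.32, adjusted p = 2.58e-05). Neutrophils against progenitors did not pass (log2 0.86, SE 0.72, adjusted p = 0.276). The step from dendritic to T cells (log2 0.94, adjusted p = 0.0232) was lost when CBMA_02m, CBMA_18m or CBMD_02m was left out (log2 0.66 to 0.90), and that from T cells to monocytes (log2 1.08, adjusted p = 0.00499) without CBMD_12m (log2 0.68).

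In B cells Irf4 was higher in both 18m libraries than in both 02m libraries. The ratio of 18m to 02m was 2.95 (1.7 to 5.48) in CBMA and 2 (1.14 to 3.85) in CBMD, from 96 and 145 UMIs at 18m and 15 and 13 UMIs at 02m. In the age test over both sites Irf4 in B cells did not pass at 18m against 02m. Jchain, a plasma cell transcript, ranged from 0 to 2372 CPM in the B class. Among the 588 B cells with no Jchain UMI the ratios were 2.55 (1.45 to 4.79) and 1.97 (1.11 to 3.82). Monocytes also held more Irf4 at 18m, at a low level, with ratios of 2.83 (2.14 to 3.75) in CBMA and 1.86 (1.41 to 2.46) in CBMD, and the ratio in CBMD was 0.815 after thinning to 1000 UMIs per cell. Irf4 was detected in 45.5% of B cells, 79.4% of plasma cells and 0.466% of neutrophils (median depths 4248, 24273 and 2956.5 UMIs), and after thinning in 16.7%, 9.71% and 0.145%.

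Subsets of the 2 largest classes were compared next. In neutrophils with under 0.2% granule UMIs against those with at least 1%, 6 of 7 tested members were higher in edgeR's test, where 34.9% of all genes were. Irf5 differed by log2 2.60 (SE 0.18, adjusted p = 9.22e-08), Irf1 by 1.68, Irf2 by 1.39, Irf7 by 1.36, Irf9 by 1.24 and Irf8 by 1.13, while Irf3 did not pass (log2 0.04, adjusted p = 0.834). Over all libraries Irf1 stood at 183 CPM in the granule-poor cells and 61.0 CPM in the granule-rich cells. The Irf7 call was lost without the library block (log2 1.37, adjusted p = 0.0536).

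In nonclassical against classical monocytes, gated by Treml4, Ace, Cd300e and Eno3 against Ly6c2 and Ccr2, 2 of 8 members were higher, where 16.1% of all genes were, and 1 was lower, where 17.7% were. Irf1 was higher by log2 0.96 (SE 0.17, adjusted p = 4.87e-05) and Irf2 by 0.77 (SE 0.14, adjusted p = 4.43e-05). Irf8 was lower by log2 -0.75 (SE 0.15, adjusted p = 0.00026), with 208 CPM in 273 nonclassical cells and 354 CPM in 6180 classical cells. Irf5 was at 188 CPM in nonclassical and 187 CPM in classical cells.

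Interferon-stimulated genes are the known readout of the pathway, and a list of 45 of them that holds no Irf gene was compared with the family cell by cell in neutrophils. With each neutrophil thinned to 1000 UMIs, at least 5 UMIs of the list were found in 84.2%, 18.3% and 21% of cells in CBMA at 02m, 12m and 18m, and for CBMD in 91.2%, 17.1% and 15.2%. Cells with no UMI of the list numbered 76, 231 and 672 in CBMA, and in CBMD there were 13, 428 and 767. Cells with none were 0.266% and 1.6% of the neutrophils in the 02m libraries, and 16.9% to 20.3% in the 4 older ones, so most neutrophils of every library held at least 1 such UMI and the libraries differed in how many cells held 5 or more.

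Irf7 was higher in the cells with interferon-stimulated transcripts within the libraries as well. It held 434, 202 and 164 CPM in cells with at least 5 list UMIs of CBMA at 02m, 12m and 18m, against 79.0, 34.6 and 35.7 CPM in cells with none. In CBMD it held 315, 122 and 165 CPM, against 0, 60.8 and 31.3 CPM, the 0 coming from 13 cells only. The cells with list UMIs were higher in each of the 5 libraries with a ratio, by a median of 5.27-fold (2.01 to 5.83). Irf9 was higher by a median of 3.49-fold (2.24 to 3.88 in 5 libraries), Irf5 by 2.8-fold (1.78 to 4.57 in 4), Irf1 by 1.96-fold (1.32 to 2.79 in 5), Irf3 by 1.8-fold (1.53 to 2.22 in 4), Irf2 by 1.66-fold (1.45 to 2.17 in 5) and Irf8 by 1.31-fold (1.22 to 1.6 in 3). Without both 12m libraries the same 7 members were higher in each library with a ratio (median 5.27 for Irf7 and 3.06 for Irf9). The share of all genes higher in such cells was not computed, so the count of members is no result about the family.

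**Figure D5:**
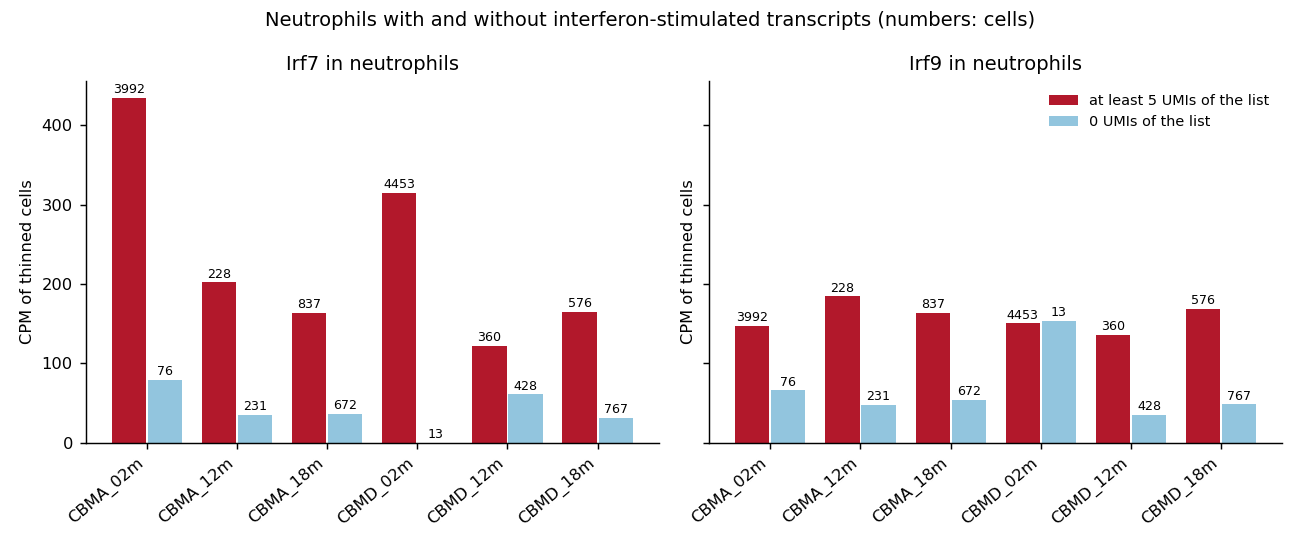
CPM of Irf7 (left) and Irf9 (right) in neutrophils thinned to 1000 UMIs, in cells with at least 5 UMIs (red) and 0 UMIs (blue) of 45 interferon-stimulated genes, by library, with cell numbers above the bars. Irf7 bars of cells with list UMIs reach 122 to 434 CPM and those of cells without stay at or below 79.0 CPM, and the Irf9 bar of CBMD_02m cells without rests on 2 UMIs.

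Between libraries, neutrophils with list UMIs held Irf9 at 136 to 184 CPM over all ages, whereas Irf7 in such cells was 315 and 434 CPM at 02m, against 122 to 202 CPM at 12m and 18m. Among neutrophils with under 0.2% granule UMIs the median ratio was 3.86 for Irf7, 3.16 for Irf9, 1.63 for Irf5, 1.52 for Irf1 and 1.52 for Irf2, while Irf8 was higher in 1 of 2 libraries (0.706 and 1.49). With at least 10 list UMIs Irf8 was higher in 2 of 3 libraries, the lowest at 0. Without thinning, no member was higher in all libraries (median 1.6 for Irf7 and 2.62 for Irf9). In monocytes too few cells lacked list UMIs to form these ratios for Irf7 and Irf9. Irf8 was lower in monocytes with list UMIs in all 3 libraries with a ratio (0.317, 0.497 and 0.564), from 7 to 30 cells without.

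The other genes of the pathway were described by lists. Of the 45 interferon-stimulated genes, 38 of 44 measured were lower and none higher in neutrophils of CBMA at 18m against 02m, and 37 of 43 were lower and none higher in CBMD (median log2 -1.89 and -2.02, against -0.133 and -0.0421 over all genes). Over all genes 26.9% were lower and 14% higher in CBMA, with 21% and 13.4% in CBMD. In monocytes 30 of 44 were lower and 1 higher at each site (median -1.32 and -1.39, against 0.148 and 0.118). Of all genes in monocytes 11.3% were lower and 23.2% higher in CBMA, with 12.2% and 20.2% in CBMD. Oas1g, an oligoadenylate synthetase, was at 0.493 CPM in neutrophils of CBMA_18m, against 22.8 CPM in CBMA_02m (ratio 0.0216, and 0.0154 in CBMD), and Ifi27l2a at 293 CPM against 5745 CPM (0.051, and 0.0315 in CBMD). Ifi44 had 0 UMIs in neutrophils of CBMA_18m, against 74 in CBMA_02m (exact 95% interval of the ratio 0 to 0.0647). The highest ratios in CBMA were those of guanylate-binding proteins and a chemokine, at 1.18 for Gbp3, 1.22 for Gbp2 and 1.43 for Cxcl10 in CBMA, with 0.772, 0.786 and 0.735 in CBMD. In RefSeq 23 of the 35 list genes with a promoter entry held the ISRE.

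Genes upstream of the family gave ratios on both sides of equality. Of 15 receptor and JAK-STAT genes measured in neutrophils, 3 were lower and 4 higher in CBMA and 3 lower and 2 higher in CBMD (median log2 0.206 and -0.0951), where 26.9% and 21% of all genes were lower and 14% and 13.4% higher. The lowest were the feedback inhibitors Usp18 (ratio 0.16 in CBMA, 0.194 in CBMD) and Socs1 (0.562, 0.544) and the Irf9 partner Stat2 (0.564, 0.47). Ifngr1 stood at 1.15 and 0.953, the interferon receptor chain Ifnar1 at 1.68 and 1.43, Jak1 at 1.73 and 1.48 and Il10rb at 1.59 and 1.08. In monocytes 2 of 14 were lower and 7 higher in CBMA (11.3% and 23.2% of all genes) and 3 lower and 4 higher in CBMD (12.2% and 20.2%), with Stat2 at 0.583 and 0.476 and Socs3 at 4.89 and 2.09.

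Of 18 nucleic acid sensors, adaptors and kinases measured in neutrophils, 4 were lower and 2 higher in CBMA (26.9% and 14% of all genes), so both counts lay near the background. In CBMD 1 was lower and 3 higher (21% and 13.4%). The cytosolic RNA sensor Ifih1, which is also an interferon-stimulated gene, was lowest (ratio 0.279 in CBMA, 0.246 in CBMD), and the Toll-like receptors Tlr4 (2.3, 1.85) and Tlr8 (2.26, 1.68) were highest. In monocytes 1 of 20 was lower and 5 higher in CBMA (11.3% and 23.2% of all genes) and 3 lower and 2 higher in CBMD (12.2% and 20.2%). Of 15 partners and co-regulators of the family measured in neutrophils, 4 were lower and 2 higher in CBMA (26.9% and 14% of all genes). In CBMD 4 were lower and 1 higher (21% and 13.4%). Id2 stood at 0.288 and 0.328, Spi1, which encodes PU.1, at 0.861 and 0.859, and Cebpb at 2.66 and 1.93. In monocytes 1 of 16 was lower and 4 higher in CBMA (11.3% and 23.2% of all genes) and none lower and 2 higher in CBMD (12.2% and 20.2%). Prdm1, the repressor known as Blimp-1, stood there at 4.78 and 3.83. Batf3, the partner of Irf8 in cDC1, was at 70.4 to 102 CPM in dendritic cells and at most 21.5 CPM in a monocyte library.

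Type I interferon transcripts were almost absent. Ifnb1 was at or below 0.12 CPM over all cells of a library, Ifna2 at or below 0.138 CPM, and Ifna1, Ifna5 and Ifna13 had no UMI. Ifng was read in T cells, at 50.4, 62.1 and 148 CPM in CBMA at 02m, 12m and 18m, with 35.2, 129 and 220 CPM in CBMD. It was highest at 18m at both sites, the age at which Irf7 was lowest in T cells, though not in neutrophils.

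Genes whose levels ran most like each member were sought over 42 sums (7 classes in 6 libraries) among 11106 genes, by Pearson's r of log2(CPM + 1). These sums share libraries and classes, so the values are a description. Irf7 was nearest to Usp18 (0.911), Ifi27l2a (0.878) and Xaf1 (0.874), and Irf9 to Slfn5 (0.947), Supt4a (0.898) and Tor1aip1 (0.894). Irf5 was nearest to Ctsh (0.951), Stx7 (0.927) and 5031439G07Rik (0.915), and Irf8 to BC035044 (0.908), Snx30 (0.906) and Lactb (0.887). Irf4 was nearest to Sdc4 (0.902), St6gal1 (0.886) and Rnf122 (0.879), Irf2 to Smap2 (0.913), Samhd1 (0.903) and Arhgap30 (0.874), Irf1 to Coq10b (0.882), Ipcef1 (0.856) and Gm26528 (0.854), and Irf3 to Zcchc4 (0.882), Gna11 (0.866) and Xndc1 (0.863). Within the family the closest pairs were Irf2 with Irf9 (0.77) and Irf5 with Irf8 (0.747).

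Between the sites, the class and age with the most called members was the monocyte class at 12m. In monocytes at 12m, 6 of 8 members were higher in CBMA than in CBMD, where 12.1% of all genes were. Irf3 differed by 2.06-fold (1.54 to 2.76), Irf7 by 1.96-fold (1.65 to 2.32), Irf9 by 1.62-fold, Irf4 by 1.6-fold, Irf1 by 1.59-fold and Irf8 by 1.53-fold. CBMA_12m was the smallest library (2718 cells), its monocytes were the shallowest (median 6891 UMIs) and held the most S100a8 and S100a9 (0.245% of UMIs, against 0.0775% to 0.161% in the others), and the part of these in the difference was not tested. At 02m and 18m no member was called between the sites in monocytes or neutrophils.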

How the data were processed

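The authors deposited UMI counts per gene and barcode, made with Cell Ranger 5.0.1 on GRCm38, with no normalization, from 1 library per site and age. Cells with 500 to 5000 genes, at least 500 UMIs and at most 25% mitochondrial UMIs were kept. Classes were gated by marker UMIs, with limits set after the markers' distributions were seen, and 3513 cells lay near the neutrophil limit (S100a8 and S100a9 between 1% and 4% of UMIs). Scrublet in scanpy 1.11.5 called 196 cells doublets automatically, so doublets were instead marked by rank (2393 cells) and left out only as an alternative. UMIs were summed per library and class and given as CPM. Classes and subsets were tested with edgeR 4.0.16 (TMM, library as a block; DESeq2 1.42.0 as an alternative) on sums of at least 10 cells, which left out the plasma cells of CBMD_02m (5 cells). Ages within a site and sites within an age, with 1 library each, were compared by ratios with exact 95% Poisson intervals. Age over both sites was tested with edgeR with age and site as terms. The scripts were tested on simulated data. Total UMIs were 16031737 to 66264495 in a library. The named genes were the 8 members, the 3 lowest and 3 highest ratios of each pathway list in CBMA with a few fixed genes, 1 of which is not reported here, and the 3 genes most like each member. Members, lists and rules were chosen with earlier results of these data known.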

Additional observations from a re-analysis of the deposited data

Results flagged for a closer look

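In dendritic cells 2 members moved in opposite directions at the 2 sites with age, and the difference between sites was not tested. Irf3 at 18m against 02m had a ratio of 0.588 (0.389 to 0.889) in CBMA, from 49 UMIs at 18m and 51 at 02m, and of 1.5 (0.928 to 2.47) in CBMD, from 48 and 29 UMIs. Against 12m the Irf3 ratio at 18m was 0.491 (0.296 to 0.837) in CBMA and 1.55 (0.891 to 2.78) in CBMD, comparisons that share the 18m libraries and include the 12m libraries that hold Xist. Irf4 at 18m against 02m had a ratio of 2.79 (1.7 to 4.78) in CBMA, from 91 and 20 UMIs, and of 0.592 (0.361 to 0.957) in CBMD, from 30 and 46 UMIs. With cells thinned to 1000 UMIs the 18m to 02m ratios in CBMD turned to 0.613 for Irf3 and 1.53 for Irf4, the same directions as in CBMA, and the unthinned Irf3 interval in CBMD includes 1.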

How the results depend on the processing

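Classes were compared within libraries, but libraries of different ages or sites could not be paired. All libraries carry replicate number 1, and nothing states whether the CBMA and CBMD libraries of an age came from the same mice. The sites of an age entered 1 model as a term instead. With 1 library per condition, the spread between mice is not covered by any interval, and low members were read from few UMIs. Of the 125 class calls, 113 to 125 passed again in the same direction under each alternative, and 115 to 124 with 1 library left out. With age and site in 1 model and 1 library left out, 5 to 12 pairs were lower and 2 to 4 higher at 12m against 02m, 4 to 12 lower and 0 to 4 higher at 18m against 02m (4 higher without both 12m libraries), and 0 to 1 lower and 0 to 2 higher at 18m against 12m. Counts of age and site calls by ratio moved with the threshold and depth. Pairs of gene and class lower at 12m against 02m numbered 23, but 9 with cells thinned to 1000 UMIs and 14 at 2-fold, and those higher 12, but 7 in both settings. At 18m against 02m, 24 were lower (11 thinned, 13 at 2-fold) and 13 higher (0 thinned, 6 at 2-fold). At 18m against 12m, 13 were lower (6 in both settings) and 8 higher (13 with median-of-ratios size factors, 2 thinned, 3 at 2-fold). Thinning leaves fewer genes above the UMI minimum by its construction. Between CBMA and CBMD at 02m, 3 were lower (1 at 2-fold) and 3 higher (5 with size factors, 0 at 2-fold), at 12m 14 were higher (9 with size factors, 4 at 2-fold), and at 18m 4 were higher (2 with size factors, 1 at 2-fold). Irf8 in neutrophils of CBMA at 12m against 02m turned from 0.657 to 1.25 without doublets and 1.57 thinned. Thinning also turned Irf4 in monocytes (0.815) and dendritic cells (1.53) and Irf3 in dendritic cells (0.613) at 18m against 02m in CBMD, and Irf5 in progenitors at 12m against 02m in CBMA (1.05). Irf3 in monocytes against neutrophils turned to log2 -0.0764 with RLE, -0.187 with no filter, -0.0247 with doubled marker minimums, -0.102 without doublets, -0.068 with DESeq2, -0.0217 without both 12m libraries, an alternative added after seeing the data, and -0.136 (without CBMA_02m), -0.0683 (CBMA_12m), -0.0637 (CBMA_18m), -0.124 (CBMD_02m) and -0.101 (CBMD_18m) with 1 library left out. In neutrophils with against without interferon-stimulated transcripts, 7 members were higher in every library with a ratio, but 0 without thinning and 6 with at least 10 list UMIs or in granule-poor cells, where Irf8 was the exception. Without thinning the medians of Irf1 (0.919), Irf3 (0.723), Irf5 (0.729) and Irf8 (0.909) turned. The cause of these turns was not tested. Irf7 at 18m against 02m kept its direction in neutrophils (0.183 to 0.233 in CBMA, 0.215 to 0.371 in CBMD) and monocytes (0.173 to 0.211, 0.25 to 0.299) under all alternatives run.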
